A study of Oryza sativa with 9 samples.

Results

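Clock genes were followed at 9 loci in developing rice (Oryza sativa) seeds: LHY, the pseudo-response regulators PRR1, PRR37, PRR73, PRR95 and PRR59, GI, ELF3 and LUX. They were set by a list of locus identifiers that uses no value, though earlier results of these data were known. All 9 were found among the 55986 loci of the deposited table. The purpose was to see whether libraries of the 3 genotypes, and the replicates within them, stood at a like point of the daily cycle. The genotypes were wild type (WT), P1MH, which carries G401S in the RNA-binding protein RBP-P, and P3MH, which carries A252T in the same protein. Each had 3 biological repeats. Total RNA came from dehulled seeds 10 to 14 days after flowering, from plants kept at 27 °C in cycles of 12 h light and 12 h dark. The labels give no harvest hour, no cultivar, no number of plants or seeds in a library and no other allele of the lines. A difference in harvest hour between genotypes and an effect of genotype on clock genes thus cannot be told apart here. Levels are in RPKM, that is, read numbers divided by exon length and by the mapped reads of the library.

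The plant clock is a loop of repressors that act on each other's genes at different times of day. LHY, a MYB transcription factor, is made around dawn and represses genes of the evening. The PRR proteins follow in sequence through the day and repress LHY, in rice with PRR73 and PRR37 early, PRR95 and PRR59 next and PRR1, the counterpart of Arabidopsis TOC1, around dusk. GI, a large protein of late day, links the clock to flowering. ELF3 and LUX are known from Arabidopsis as parts of the evening complex, in which LUX binds DNA. Because these transcripts cycle with different phases, their levels relative to each other change with the hour of sampling.

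RefSeq carried the expected name for 8 of the 9 loci at the position that their neighbours fix. PRR59 (LOC_Os11g05930) fell on a RefSeq gene of matching span with no name, so that name rests on the list of loci alone. The RefSeq gene at the LHY locus bears that name but spans 1.63 times the deposited region.

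Libraries held 5865007 to 7498434 mapped reads, as inferred from the spacing of RPKM values, and the 10 highest genes took 30.9 to 39.6% of all RPKM. Endosperm markers were high throughout. GluA-1, a glutelin storage protein gene, was at 12922 to 15672 RPKM in the WT libraries, 20680 to 24403 in those of P1MH and 13845 to 17330 in those of P3MH, and Wx, which makes amylose, was at 537 to 762 over all libraries. Markers of embryo and aleurone and of green tissue were present in all libraries as well. The summed RPKM of 4 embryo and aleurone markers (RAB16A, OLE18, LEA3 and Em) was 430 to 681 for WT, 830 to 1257 for P1MH and 625 to 970 for P3MH. That of 4 green tissue markers (RBCS2, plastocyanin, CAB1R and CAB2R) was 319 to 375, 264 to 363 and 275 to 377 in the same order. The name RBCS2 (LOC_Os12g19381) was not found by the RefSeq check and rests on the list of loci alone. By limma with Benjamini-Hochberg adjustment, 5 of these 11 markers passed the test in P1MH against WT, beside 8.81% of all genes tested. None passed in P3MH against WT, beside 4.77%, and 2 had an unadjusted limma p under 0.05, beside 19.9%. In P1MH the glutelin genes GluA-1 (log2 fold change 0.69, adjusted p = 0.0464) and GluA-2 (0.71, adjusted p = 0.0369) were higher, as were RAB16A (1.85, adjusted p = 0.00586) and OLE18 (0.95, adjusted p = 0.0103). Plastocyanin, a protein of photosynthetic electron transport, was lower at -0.66 (adjusted p = 0.0259). Of 19 alternatives, chosen for these markers after seeing the data, 11 lost the call of GluA-1, 7 that of GluA-2, 1 that of OLE18 (without WT replicate 3) and 10 that of plastocyanin, all 4 rescalings among the last. The call of GluA-1 was lost without any 1 of the 6 WT and P1MH libraries, that of GluA-2 without any but WT replicate 1, and that of plastocyanin without any but P1MH replicate 2. P1MH is also the genotype whose libraries read lower in PRR95, PRR59 and LUX. In bulk seeds, fewer cells of a type and less RNA per cell cannot be told apart. The part of tissue makeup in the values that follow was not tested.

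All 9 clock genes were detected in all 9 libraries, and their order by level was nearly the same in each. From high to low, the means over the libraries were 69.0 RPKM for PRR95, 57.2 for PRR73, 52.9 for LHY, 23.1 for GI, 17.1 for PRR59, 11.3 for PRR1, 5.33 for ELF3, 3.82 for PRR37 and 2.55 for LUX. GI, PRR59, PRR1 and LUX held places 4, 5, 6 and 9 in every library. The top 3 changed places among themselves: PRR95 was above PRR73 in 8 of 9 libraries, and PRR73 above LHY in 6 of 9, so PRR73 and LHY were not separated beyond the spread between libraries. ELF3 was above PRR37 in 8 of 9 libraries. The dawn gene LHY and day-phased PRR genes thus stood above the dusk gene PRR1 in each genotype, with PRR37 as the exception among the PRR genes. Baselines of different genes in seeds are not known here, so this order alone does not place a library in the day. Together the 9 genes summed to 245 to 292 RPKM in the WT libraries, 217 to 244 in those of P1MH and 225 to 242 in those of P3MH. Each mutant library was below all WT libraries, but the genotypes overlapped once libraries were rescaled by the median ratio.

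**Figure D1:**
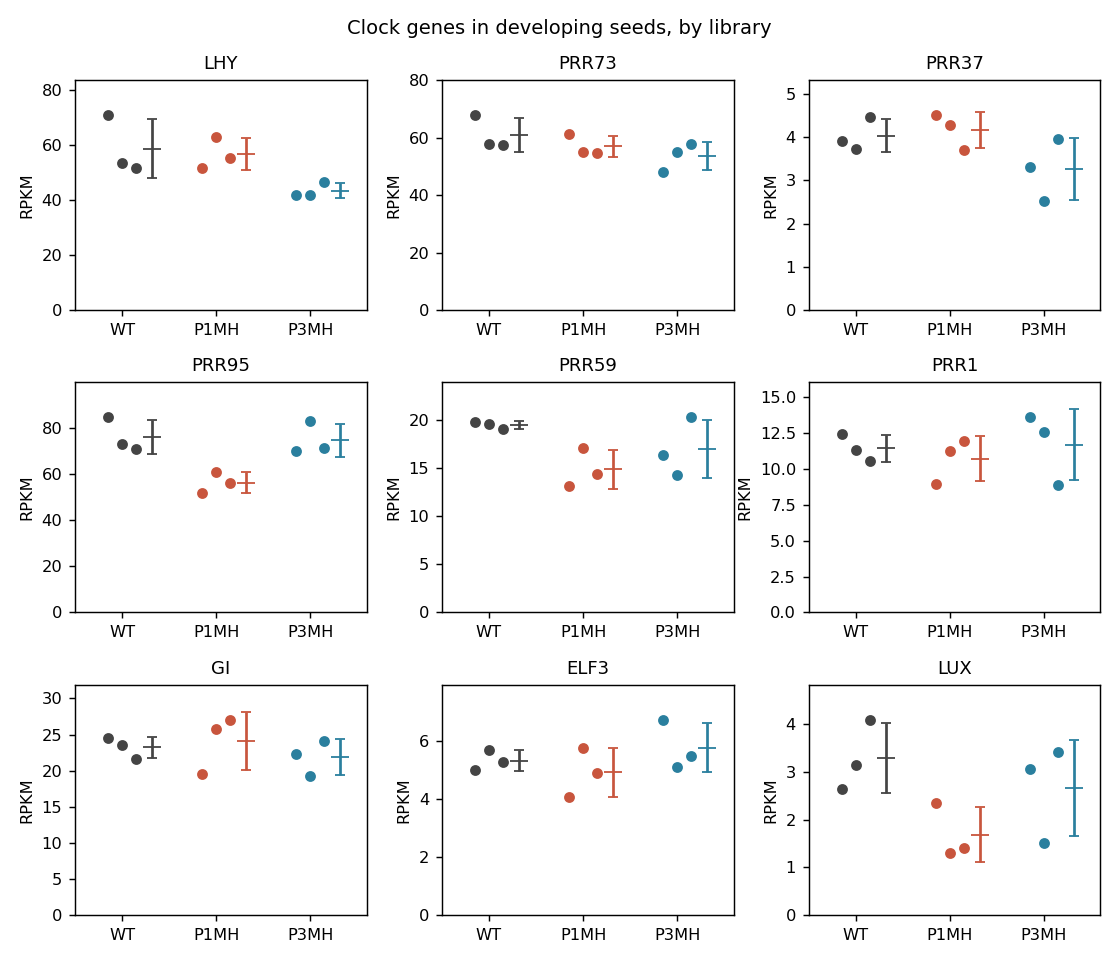
RPKM of each clock gene (vertical axis, from 0, scaled for each gene) in the 3 libraries of WT, P1MH and P3MH. Points are libraries in the order of replicates 1 to 3, and the bar beside them is the mean with its SD. PRR95, PRR59 and LUX lie lower in all P1MH libraries than in all WT libraries, and LHY lies lower in all P3MH libraries, in values as deposited.

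No clock gene passed the test in any comparison. By limma with Benjamini-Hochberg adjustment over all 16064 genes tested, the count was 0 of 9 in P1MH against WT, where 8.81% of all genes passed. It was 0 of 9 in P3MH against WT, where 4.77% passed, and 0 of 9 in P1MH against P3MH, where 0.0311% passed. With only 9 genes, a count of 0 is near the share of all genes. At an unadjusted limma p under 0.05 there were 3 of 9, 1 of 9 and 2 of 9 clock genes, beside 24.7%, 19.9% and 12.8% of all genes tested. The median log2 fold change of the clock genes was -0.10 in P1MH against WT and -0.18 in P3MH against WT. The median over all genes tested was -0.10 and -0.13 in these comparisons, and 0.02 between the mutants, where the clock genes had -0.10. Rescaling by the median ratio brought the median of all genes to 0.00 in P1MH and P3MH against WT, so the differences from WT whose intervals leave out 0 (LHY, PRR95, PRR59 and LUX) are also given relative to it. Differences near 0 changed sign with the scaling: those of LHY, PRR1 and PRR73 in P1MH and of PRR95 in P3MH under all 4 rescalings tried, that of GI in P3MH under 3 and that of ELF3 in P1MH under 1. Both comparisons against WT use the same 3 WT libraries.

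LHY (LOC_Os08g06110, chromosome 8, 3365730 to 3373434 in the coordinates of the deposited table) is the dawn member of the loop. It read 71.0, 53.7 and 51.5 RPKM in the 3 WT libraries, 51.6, 63.0 and 55.3 in those of P1MH, and 42.0, 41.9 and 46.5 in those of P3MH. The P3MH libraries lay below all others, while those of WT and P1MH overlapped. P3MH differed from WT by -0.41 on the log2(RPKM + 1) scale (SE 0.15, 95% interval -0.74 to -0.08, limma adjusted p = 0.151), or by -0.29 relative to the median gene. P1MH stood above P3MH by 0.37 (SE 0.15, interval 0.04 to 0.70, limma adjusted p = 0.335). The difference of P1MH from WT was -0.04 (interval -0.37 to 0.29, limma adjusted p = 0.898). The value of the highest WT library, replicate 1, rests on 1486 reads and the lowest P3MH value on 780.

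PRR73 and PRR37 are the PRR genes of the early part of the day, and PRR37 is also a heading date gene that delays flowering in long days. PRR73 (LOC_Os03g17570) read 68.0, 57.7 and 57.4 RPKM in the 3 WT libraries, 61.2, 55.1 and 54.7 in those of P1MH, and 48.2, 54.9 and 57.8 in those of P3MH. The 3 genotypes overlapped. Its log2 differences were -0.10 (interval -0.39 to 0.20) in P1MH and -0.18 (interval -0.48 to 0.11) in P3MH. PRR37 (LOC_Os07g49460) had 2.53 to 4.52 RPKM over the 9 libraries, with 51 to 105 reads behind a value. It differed from WT by 0.04 (interval -0.34 to 0.41) in P1MH and by -0.25 (interval -0.63 to 0.13) in P3MH, with its lowest value in P3MH replicate 2.

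PRR95 and PRR59 come next in the day. PRR95 (LOC_Os09g36220, chromosome 9, 20885172 to 20889843) read 84.5, 73.1 and 70.8 RPKM in the 3 WT libraries, 51.7, 60.7 and 56.2 in those of P1MH, and 69.8, 82.8 and 71.2 in those of P3MH. The 3 P1MH libraries were lower than all 6 others, and WT and P3MH overlapped. P1MH differed from WT by -0.43 (SE 0.14, interval -0.73 to -0.13, limma adjusted p = 0.0774), or by -0.33 relative to the median gene. It differed from P3MH by -0.40 (SE 0.14, interval -0.70 to -0.10, limma adjusted p = 0.278). P3MH and WT differed by -0.03 (interval -0.33 to 0.27).

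PRR59 (LOC_Os11g05930) read 19.9, 19.6 and 19.1 RPKM in the WT libraries, the closest agreement of any clock gene within a genotype. P1MH libraries had 13.2, 17.1 and 14.4 RPKM, and P3MH libraries 16.4, 14.3 and 20.3. P1MH lay below WT without overlap, and P3MH overlapped both. The log2 difference of P1MH from WT was -0.38 (SE 0.15, interval -0.70 to -0.05, limma adjusted p = 0.143), or -0.28 relative to the median gene, and that of P3MH from WT was -0.20 (interval -0.53 to 0.13, limma adjusted p = 0.49).

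PRR1 (LOC_Os02g40510), the dusk member, read 12.4, 11.3 and 10.5 RPKM in the 3 WT libraries, 8.97, 11.3 and 11.9 in those of P1MH, and 13.6, 12.6 and 8.88 in those of P3MH. P3MH held values above and below those of WT, and P1MH held 1 value below them and 2 within their range. The largest gap between replicates was in P3MH, where replicate 3 gave the lowest value of the series and replicate 1 the highest. Its log2 differences were -0.09 (interval -0.46 to 0.28) in P1MH against WT, 0.01 (interval -0.36 to 0.38) in P3MH against WT and -0.10 (interval -0.47 to 0.27) between the mutants.

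GI (LOC_Os01g08700), which acts late in the day, read 24.5, 23.6 and 21.7 RPKM in the 3 WT libraries, 19.5, 25.8 and 27.0 in those of P1MH, and 22.2, 19.2 and 24.2 in those of P3MH. The 3 genotypes overlapped, with differences of 0.04 (interval -0.29 to 0.36) in P1MH and -0.09 (interval -0.41 to 0.24) in P3MH. ELF3 (LOC_Os06g05060), also known in rice as the heading date gene Hd17, was at 4.07 to 6.72 RPKM over all libraries. It differed from WT by -0.10 (interval -0.46 to 0.25) in P1MH and by 0.09 (interval -0.27 to 0.45) in P3MH.

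LUX (LOC_Os01g74020, listed as PCL1 in RefSeq) was the lowest and the least evenly measured clock gene. It read 2.63, 3.16 and 4.10 RPKM in the 3 WT libraries, 2.34, 1.30 and 1.41 in those of P1MH, and 3.07, 1.51 and 3.42 in those of P3MH. P1MH was lower than WT without overlap, by -0.69 on the log2 scale (SE 0.25, interval -1.22 to -0.15, limma adjusted p = 0.105), or by -0.59 relative to the median gene. P3MH overlapped both (difference from WT -0.26, interval -0.79 to 0.27). Only 11 to 38 reads stand behind each value, and the counting error of a single library was 0.222 on the log2 scale. Differences in LUX smaller than about its interval were not detectable at this spread between replicates, which was 1.52 times the counting error.

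Groups that do not overlap were common in these data, which sets the scale for the 3 genes lower in P1MH. PRR95, PRR59 and LUX make 3 of 9 lower in P1MH than in WT without overlap, beside 21.5% of all genes tested. LHY makes 1 of 9 lower in P3MH than in WT, beside 20.6%. Between the mutants, LHY was higher and PRR95 lower in P1MH, 2 of 9 where 15.3% of all genes do not overlap in either direction. The remaining members overlapped in each comparison. PRR95 and PRR59 in P1MH, and LHY in P3MH, stayed apart from WT under all 4 rescalings. The share of all genes lower without overlap was 14.5% in P1MH and 11.3% in P3MH after median-ratio rescaling. LUX then overlapped, and ELF3 was higher in P3MH than in WT without overlap, beside 12.8% of all genes tested.

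**Figure D2:**
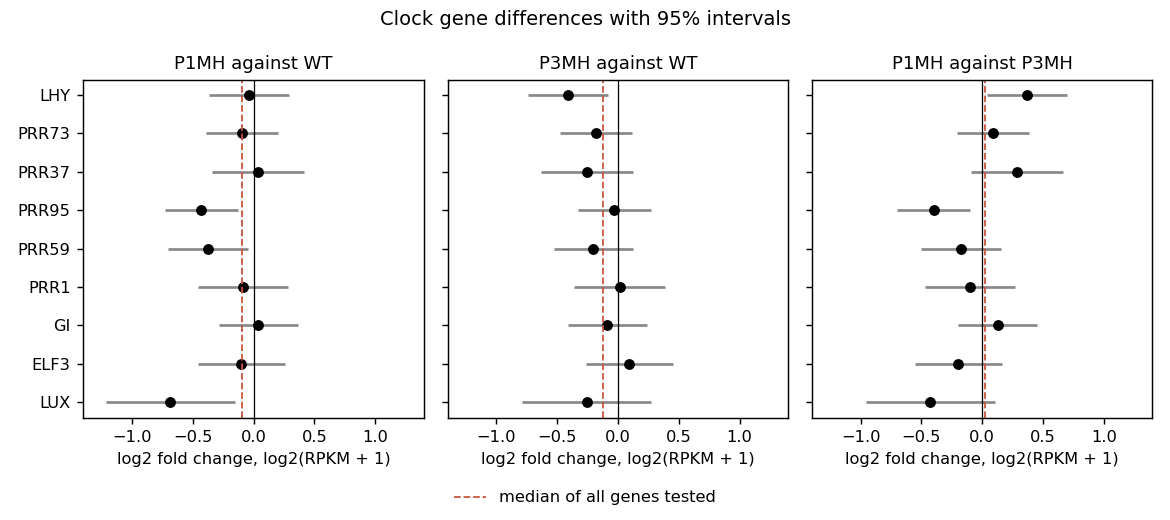
Log2 fold change of each clock gene on the log2(RPKM + 1) scale (horizontal axis) in the 3 comparisons, with 95% intervals from limma. The solid line is at 0 and the dashed line at the median of all genes tested. The intervals leave out 0 for PRR95, PRR59 and LUX in P1MH against WT, for LHY in P3MH against WT, and for LHY and PRR95 between the mutants, before any adjustment.

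Ratios of RPKM between clock genes within 1 library are not changed when all its values are divided by 1 factor, and set a gene of the early day against one of the late day. The ratio of LHY to PRR1 in RPKM was 5.72, 4.73 and 4.90 in WT and 5.75, 5.59 and 4.64 in P1MH. In P3MH it was 3.09, 3.33 and 5.23. P3MH replicates 1 and 2 were thus lower than all other libraries, and replicate 3 lay among those of WT and P1MH. The mean log2 ratio was 2.25 ± 0.149 for WT, 2.30 ± 0.155 for P1MH and 1.83 ± 0.381 for P3MH (SD over 3 libraries, on log2(RPKM + 1)).

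The ratio of LHY to GI was 2.28 to 2.90 for WT, 2.04 to 2.65 for P1MH and 1.89 to 2.18 for P3MH, where all 3 libraries lay below those of WT. LHY alone was already lower in all P3MH libraries, so the ratios that hold LHY are not separate observations. How often ratios of other genes lie apart in this way was not tested. The ratio of PRR73 to PRR1 was 5.09 to 5.47 for WT, 4.59 to 6.82 for P1MH and 3.54 to 6.51 for P3MH. Here both mutants spread to either side of WT, and P1MH replicate 1 and P3MH replicate 3 were the highest. LHY exceeded PRR1 at least 3.09-fold and exceeded GI at least 1.89-fold in all 9 libraries. LHY was thus above PRR1 and GI in each library. No series of hours was sampled, so whether this order ever reverses in seeds, and what hour it marks, was not tested.

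**Figure D3:**
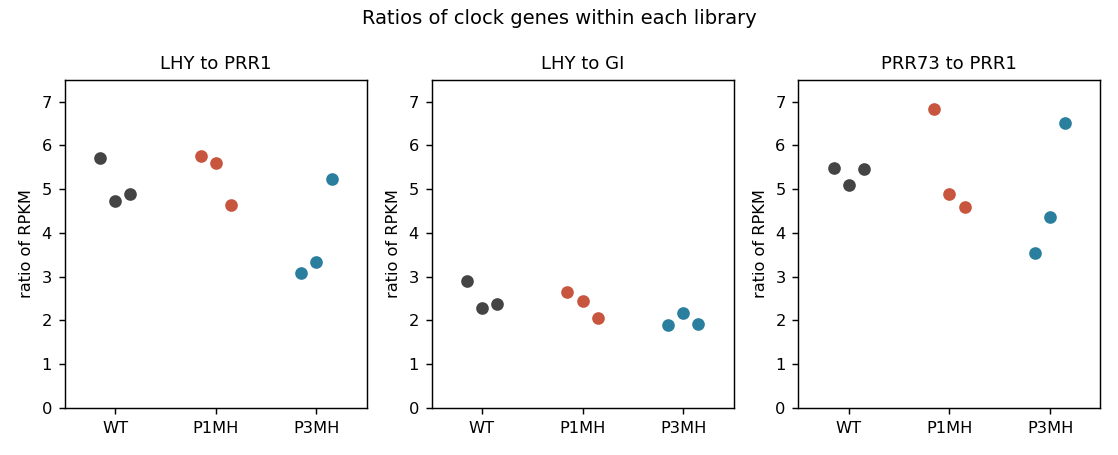
Ratios of RPKM between clock genes within each library (vertical axis, from 0), for LHY to PRR1, LHY to GI and PRR73 to PRR1. Each point is 1 library, in the order of replicates 1 to 3. LHY to PRR1 is 3.09 and 3.33 in P3MH replicates 1 and 2 and between 4.64 and 5.75 in the other 7 libraries.

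Replicates of a genotype differed little in most clock genes. The SD within genotypes on the log2(RPKM + 1) scale was 0.122 for PRR73, 0.127 for PRR95, 0.164 for ELF3, 0.170 for PRR37, 0.172 for LHY, 0.174 for PRR59, 0.175 for GI, 0.217 for PRR1 and 0.337 for LUX. The median over all genes tested was 0.228, so 8 of the 9 lay below it. PRR73 and PRR95 had a spread at percentiles 7.92 and 9.39 of all genes tested, and LUX at percentile 80.8. The next values are relative to the spread that limma's trend gives for genes of the same level. PRR73 had 0.612 times that value, PRR95 0.632, PRR37 0.689 and ELF3 0.708 times. LHY had 0.871 times, PRR59 0.894, GI 0.916, PRR1 1.06 and LUX 1.28 times that value. Across all libraries and genotypes, the highest library exceeded the lowest 1.41-fold for GI and PRR73, 1.69-fold for LHY and 3.15-fold for LUX. The median over all genes tested was 2.01-fold. The replicate spread was 3.95 times the counting error for LHY and 1.35 times for ELF3.

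**Figure D4:**
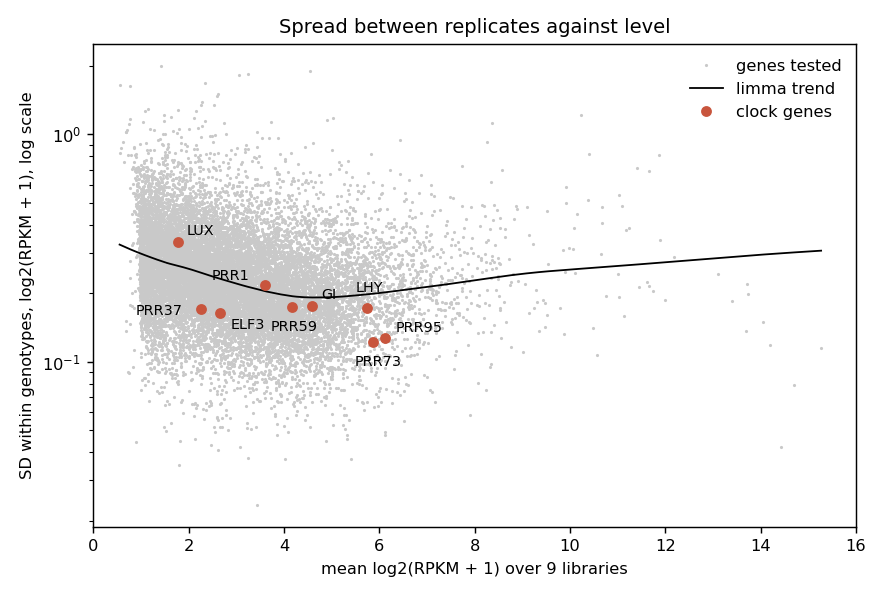
SD within genotypes of log2(RPKM + 1) (vertical axis, log scale) against the mean of log2(RPKM + 1) over 9 libraries for all genes tested (grey) and the clock genes (red). The line is limma's trend. PRR73 and PRR95 lie lowest among the clock genes at 0.122 and 0.127, and LUX lies highest at 0.337.

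A further 21 loci linked to the clock (photoreceptors, F-box proteins of the ZTL family, casein kinases and flowering regulators) were set beside them, and RefSeq carried the expected name for 8. Of these 21 loci, 14 passed the filter of a mean of 1 RPKM. None of the 14 passed the limma test in P1MH against WT or between the mutants, beside 8.81% and 0.0311% of all genes tested. At an unadjusted limma p under 0.05 there were 1 and 4, beside 24.7% and 12.8%. In P3MH against WT 1 was higher and none was lower, where 4.77% of all genes passed. There 6 had an unadjusted limma p under 0.05, beside 19.9%. The median log2 differences of the 14 were 0.00 in P1MH against WT, -0.14 in P3MH against WT and 0.12 between the mutants. The medians over all genes tested were -0.10, -0.13 and 0.02 in the same order. PHYA, a phytochrome that senses far-red light, read 27.0, 27.6 and 24.0 RPKM in the WT libraries, 23.4, 26.6 and 23.8 in those of P1MH, and 22.5, 21.1 and 22.8 in those of P3MH. P3MH lay below WT without overlap, as did 20.6% of all genes tested. The log2 difference in PHYA was -0.23 (interval -0.50 to 0.04, limma adjusted p = 0.318), and this interval includes 0. PHYA was not alone in this: other tested loci of the list also lay below WT without overlap in P3MH, by larger differences, and some lay above. DTH8, a repressor of flowering, was listed at 0 in all 9 libraries, as were 2 loci of the list whose names could not be checked. Hd3a, a florigen gene of rice, was at 0 to 0.905 RPKM.

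The 1 locus that rose was LOC_Os03g55389, which has no name in RefSeq. It read 2.29, 2.12 and 3.40 RPKM in the 3 WT libraries, 3.12, 3.25 and 21.7 in those of P1MH, and 26.8, 23.7 and 30.9 in those of P3MH. All P3MH libraries and P1MH replicate 3 were high, and the other 5 libraries were low. The log2 fold change of P3MH against WT was 2.97 (SE 0.58, limma adjusted p = 0.0239). The call was lost when any 1 of the 6 WT and P3MH libraries was left out. Its adjusted p was 2.17e-07 without P1MH replicate 3 and 6.93e-07 with only WT and P3MH in the fit, and 0.00752 to 0.0334 under the other alternatives that kept the call. Without P1MH replicate 3 it was also called between the mutants, in which case 242 genes were called in place of 5.

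For each clock gene, the gene outside the list with the closest pattern over the 9 libraries was sought by Pearson correlation of log2(RPKM + 1). The highest were LOC_Os12g40300 for PRR95 (0.98), LOC_Os10g35770 for LHY (0.98) and LOC_Os04g57140 for PRR73 (0.97). Those for GI and PRR59 were LOC_Os01g35590 and LOC_Os09g28570 (both 0.97). Those for PRR37 and PRR1 were LOC_Os10g33720 (0.96) and LOC_Os07g48244 (0.95). ELF3 had LOC_Os09g09360 (0.95) and LUX had LOC_Os04g32710 (0.94). Over all genes tested the median best correlation was 0.96, so matches this close are usual with 9 libraries and single out no partner.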

How the data were processed

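The authors deposited 1 table of RPKM values, per the file headers, for 9 libraries made with a ScriptSeq kit, per the labels' protocols. An aligner, a counting tool or a genome build is not given in the sources used here. All columns were matched to a library by name, and 0 were left unused. The members and lists were chosen with earlier results of these data known.

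Limma 3.58.1 (R 4.3.3) with trend and robust moderation was run on log2(RPKM + 1), keeping genes whose mean reached 1 RPKM, with 1 coefficient per genotype and Benjamini-Hochberg adjustment at 0.05. Fold changes on this scale understate changes of low genes. The p-values set a group difference only against the spread between biological repeats, moderated over all genes tested. The fit was tested on simulated data. Other steps used Python 3.11.15 with pandas 2.3.3 and numpy 2.4.6, and figures were drawn with matplotlib 3.10.9.

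Reads behind a value were recovered from the spacing of RPKM values, taking the smallest exon length that gave whole reads (steps of 0.5 read in WT) within 0.0001 in every library. This length was the only one possible for 6 of the 9 members, and for LHY, PRR37 and PRR73 the reads may be more. Of the 27 WT values of members 12 fell on such steps of 0.5 read. The search required whole reads in P1MH and P3MH, so their count of 0 was set in advance. Reads of WT may have been counted otherwise than those of both mutants, which this search cannot decide. Any part of this in the differences from WT cannot be told apart from genotype and was not tested. Library totals were inferred too, with the most frequent small step of RPKM times gene span taken as 1 read. By these totals, a floor of 3 reads was 0.400 to 0.512 RPKM at 1 kilobase of exon. Read numbers cover counting error only.

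Gene names were taken from RefSeq (assembly ASM3414082v1) and were matched by the spacing of neighbouring genes within 100000 bases. The named genes are the 9 members, the closest pattern for each, and of the clock-linked list those passing a test and those with a checked name among the 3 highest, which was PHYA. DTH8 and Hd3a were chosen after their values were seen, and 1 result of the list is not reported here. Alternatives were a replicate block, 4 rescalings, 2 filters, another pseudocount, limma without trend, leaving out each library, and fits of 2 genotypes.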

Additional observations from a re-analysis of the deposited data

How the results depend on the processing

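The count of clock genes called was 0 in all 3 comparisons under all 19 alternatives, and the smallest adjusted p of any clock gene was 0.0614 by limma (LUX in P1MH against WT, without P3MH replicate 2). Replicate numbers did not pair the libraries: deviations from genotype means correlated at -0.307 to 0.112 for the same number and -0.209 to 0.295 for different numbers, over genes. With the replicate block 1178, 650 and 5 genes were called in place of 1416, 766 and 5, and the clock-linked list gave 2 calls in P3MH against WT in place of 1. Of 507 fold changes of clock genes under an alternative, 469 kept their direction. The sign of small differences turned as follows, in log2 units, for median-ratio, upper-quartile and quantile rescaling and scaling without the 50 highest genes, in that order. In P1MH against WT, LHY stood at 0.070, 0.065, 0.13 and 0.096, PRR1 at 0.015, 0.0098, 0.0045 and 0.039, and PRR73 at 0.017, 0.012, 0.078 and 0.043. ELF3 stood at 0.014 without the 50 highest genes. In P3MH against WT, PRR95 stood at 0.12, 0.13, 0.019 and 0.059, and GI at 0.059, 0.067 and 0.012 under the first 3.

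With libraries left out in turn, P1MH against WT ranged from -0.13 to 0.10 for LHY, -0.17 to 0.022 for PRR1, -0.013 to 0.10 for PRR37, -0.047 to 0.18 for GI and -0.21 to 0.0017 for ELF3. P3MH against WT ranged from -0.10 to 0.18 for PRR1, -0.11 to 0.047 for PRR95 and -0.0059 to 0.16 for ELF3, and P1MH against P3MH from -0.27 to 0.0093 for PRR1. The calls over all genes ranged from 608 to 1464 in P1MH against WT, 344 to 903 in P3MH against WT and 0 to 242 between the mutants (242 without P1MH replicate 3). Those of the clock-linked list ranged from 0 to 1 in each comparison. A mean of at least 5 RPKM gave 436 calls in P3MH against WT, from fewer genes tested. Between the mutants the count of 5 became 11 without the 50 highest genes, 0 with no filter, 2 with a pseudocount of 0.1, and 3 without the trend or with only the 2 genotypes; the cause was not tested. Median-ratio rescaling split the calls into 659 higher and 566 lower in P1MH against WT, in place of 511 and 905, and into 408 and 326 in P3MH against WT, in place of 268 and 498. By the rescaled values, examined for overlap after seeing the data, 2 clock genes lay apart from WT without overlap in P3MH under 3 of the 4 rescalings, in place of 1. Under these 3, 12.4 to 13.3% of all genes tested were higher and 10.8 to 11.3% lower without overlap. The WT log2 ratio of PRR73 to PRR1 was 2.41 with a pseudocount of 0.1. Counting error was highest for LUX (0.222 on the log2 scale), while the replicate spread was closest to it for ELF3 (1.35 times) and PRR37 (1.36 times); for LUX and PRR37 a mean of at least 5 RPKM gave no value.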
